A study of Mus musculus with 2 samples.

Results

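Kinesins are motor proteins that turn ATP hydrolysis into movement along microtubules or into their disassembly. One set of them builds and moves the mitotic spindle and completes cell division, and so belongs to cycling progenitors. Another carries vesicles, mitochondria and protein complexes down the axons of postmitotic neurons. Some of its members, such as Kif5b and Kif3a, also work in other cells or in cilia, so its level is not that of neurons alone. Further members work in cilia, endosomes and hedgehog signalling. The embryonic midbrain at this stage holds both dividing progenitors and newborn neurons, so both sets can be read in the same RNA.

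The 42 kinesin genes described here are the protein-coding genes of the GENCODE M21 annotation whose symbol is Kif or Kifc followed by a number and at most 1 letter, out of 55536 annotated genes, of which 22028 were protein-coding. They were chosen by name, not by level. By their textbook roles, 13 were placed in a mitotic group, 12 in an axonal transport group, 6 in a group of other vesicle and organelle motors, 6 in a cilium group and 5 in none of these. The symbol rule does not take Cenpe, a kinetochore kinesin with another name, which is given among the mitotic partners below.

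The study profiled polyadenylated RNA of midbrain from B6NCrl mouse embryos of both sexes at 12.5 days of gestation. Replicate 1 was a pool of 120 embryos and replicate 2 a pool of 88, each sequenced as 1 library from 10 ng of RNA, and there was no second condition, so differences can only be drawn between genes and between these 2 pools. The tissue and strain were the same in both pools and no allele or agent is given. Midbrain is a mixture of cells, and in such bulk RNA fewer cells of a type and less RNA per cell cannot be told apart. With 2 libraries, an error given as an SD has n = 2, and no test across pools was possible.

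The libraries held 29056735 (replicate 1) and 37122445 (replicate 2) expected counts in annotated genes, and the kinesins took 0.352% of them in replicate 1 and 0.335% in replicate 2. Otx2, a transcription factor of forebrain and midbrain, and a defining gene of this tissue, stood at 145 TPM in replicate 1 and 141 TPM in replicate 2 (a level in which reads are divided by transcript length and scaled so that all libraries share 1 total). En1, En2 and Pax7, the other midbrain markers, were lower, between 1.14 and 8.06 TPM. Summed markers of neurons were at 1697 and 1616 TPM, of cycling cells at 713 and 729, of mesenchyme at 797 and 1139 and of erythroid cells at 7561 and 8577, in replicates 1 and 2. By counts, 4 of 5 neuron markers were higher in replicate 1 beyond counting error, against 15.5% of all genes. All 4 mesenchyme markers, 3 of 4 erythroid markers, 2 of 3 endothelial markers (Cdh5 and Pecam1) and 3 of 4 midbrain markers were higher in replicate 2, against 16.7% of all genes. The 3 midbrain markers were En1, En2 and Pax7, with log2 ratios, replicate 1 over replicate 2, of -0.50, -0.50 and -0.26. The remaining midbrain marker, Otx2 (0.07), and the remaining endothelial marker, Kdr (0.13), were higher in replicate 1 beyond counting error. The shares of all genes set beside such calls, here and below, were not matched for read count. The part of these markers in the differences below was not tested.

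Of the 42 kinesins, 36 (85.7%) reached 1 TPM in both libraries, against 59.4% of all protein-coding genes. Detection lacked only Kif2b in the mitotic group (12 of 13) and was complete in the axonal group (12 of 12). It was 4 of 6 in the vesicle group, 4 of 6 in the cilium group and 4 of 5 among the rest. Detected means ran from 1.23 to 119 TPM. At 22.2 TPM, the median of detected protein-coding genes, 18 kinesins lay above: 9 mitotic and 9 axonal, and none of the 17 in the other groups. Summed over all members the family came to 1370 TPM in replicate 1 and 1371 TPM in replicate 2.

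**Figure D1:**
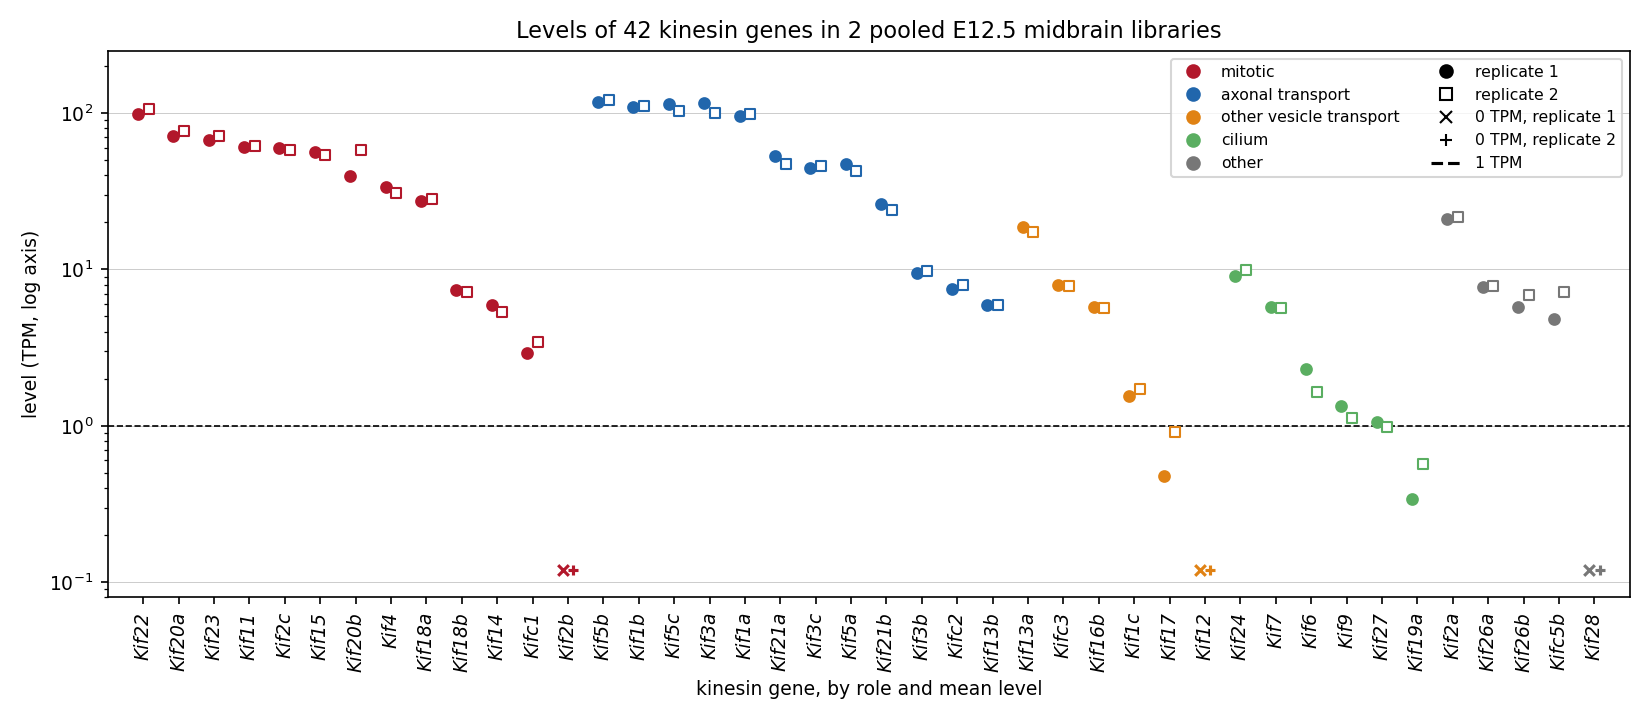
Level of each kinesin gene in TPM (log axis) by role, with mitotic genes at the left; filled circles are replicate 1, open squares replicate 2, crosses genes at 0 TPM drawn at the foot, and the dashed line 1 TPM. Detected mitotic genes run from 2.91 TPM (Kifc1) to 106 TPM (Kif22) and axonal genes from 5.92 TPM (Kif13b) to 121 TPM (Kif5b), while cilium genes stay under 10 TPM.

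The highest mitotic kinesin was Kif22, a chromokinesin that pushes chromosome arms away from the poles, with 98.7 TPM in replicate 1 and 106 in replicate 2 (ENSMUSG00000030677.8, mm10 chr7:127027729-127042471, minus strand). Motors of the central spindle and cytokinesis came next. Kif20a, which brings the chromosomal passenger complex to the central spindle, had 71.4 and 76.2 TPM, and Kif23, the motor subunit of the centralspindlin complex that positions the cleavage furrow, had 67.0 and 70.8 TPM. Kif4, a chromokinesin that also organises the central spindle, was lower at 33.8 and 30.7 TPM. Kif20b, which acts in the final cut between daughter cells, had 39.6 and 57.6 TPM (mean 48.6 ± 12.8, SD, n = 2), the widest spread among members above 10 TPM. Kif14, a motor of late cytokinesis, stood at only 5.88 and 5.35 TPM.

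Motors that set up the bipolar spindle formed a close set. Kif11, which slides antiparallel microtubules apart and drives pole separation (ENSMUSG00000012443.4, chr19:37376403-37421859, plus strand), had 60.6 and 61.2 TPM, and Kif15, which helps to keep the poles apart, had 56.4 and 53.5 TPM. Kif2c, a microtubule depolymerase that corrects faulty kinetochore attachments, lay at the same level with 59.6 and 57.8 TPM. The 3 genes stayed between 53.5 and 61.2 TPM in both libraries. Kif18a, which damps chromosome movement at the metaphase plate, had 27.4 and 28.3 TPM, and its relative Kif18b, a regulator of astral microtubules, had 7.41 and 7.17 TPM. Kifc1, the minus-end motor that clusters spindle poles, was the lowest detected at 2.91 and 3.45 TPM. Kif2b, a second spindle depolymerase, had no counts in either library, which allows at most 0.0749 TPM in replicate 1 and 0.0593 TPM in replicate 2 (3 counts, counting error only).

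In the axonal group the heavy chains of kinesin-1, the conventional transport motor, were high. Kif5b, present in most cell types, had 117 and 121 TPM; Kif5c, a neuronal heavy chain (ENSMUSG00000026764.15, chr2:49619298-49774778, plus strand), had 114 and 103 TPM; and Kif5a, the other neuronal heavy chain, had 47.0 and 42.3 TPM. Together the 3 genes held 20.3% of kinesin TPM in replicate 1 and 19.4% in replicate 2, the largest share of any numbered family. Which of them leads depends on the scale. By TPM Kif5b held 42.05% and 45.53% of the 3 and Kif5c 41.0% and 38.6%, whereas by reads Kif5c held 53.7% and 51.7% and Kif5b 26.5% and 29.3%.

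The kinesin-3 family was next with 17.8% and 17.9% of kinesin TPM. Besides axonal motors of synaptic vesicle precursors and other organelles, this share takes in Kif14 of the mitotic group. It also takes in Kif1c, Kif13a and Kif16b of the vesicle group and the undetected Kif28. Kif1b had 110 and 111 TPM and Kif1a, the main motor of synaptic vesicle precursors (ENSMUSG00000014602.15, chr1:93015464-93101951, minus strand), 95.8 and 98.4 TPM. Kif13b, which moves phosphoinositide-linked cargo, was low at 5.95 and 5.92 TPM. The heterotrimeric kinesin-2 motor pairs Kif3a with either Kif3b or Kif3c and serves both axons and cilia. Kif3a had 116 and 99.4 TPM, Kif3c 44.5 and 45.6 TPM and Kif3b 9.45 and 9.81 TPM. Kif3a thus stood at 2.14 and 1.79 times the sum of its partners.

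Kif21a and Kif21b, kinesin-4 motors that limit microtubule growth in neurons, had 53.2 and 47.3 TPM (Kif21a) and 26.1 and 24.1 TPM (Kif21b). Kifc2, a minus-end motor of neurons, had 7.47 and 7.96 TPM.

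The other vesicle motors were lower. Kif13a, a motor of recycling endosomes, had 18.6 and 17.2 TPM; Kifc3, a minus-end motor at cell junctions, 7.94 and 7.85 TPM; Kif16b, a motor of early endosomes, 5.77 and 5.69 TPM; and Kif1c, a motor of secretory vesicles, 1.54 and 1.71 TPM. Kif17, a dendritic and ciliary motor, had 0.48 and 0.91 TPM, under the limit in both libraries, and Kif12 had no counts.

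Among cilium kinesins, 2 stood apart from the rest. Kif24, a kinesin-13 that restrains cilium formation at the centriole, had 9.08 and 9.90 TPM. Kif7, the hedgehog pathway component at the tip of the primary cilium, had 5.74 and 5.65 TPM. The members tied to motile cilia were near the limit: Kif6 had 2.30 and 1.65 TPM, Kif9 1.33 and 1.12, Kif27 1.05 and 0.98, and Kif19a, which trims motile cilia, 0.34 and 0.57. The leading Kif6 transcript by TPM was a retained intron, and the coding transcript Kif6-207 had 0.70 and 0.34 TPM. Of the 3 motile cilium markers, Foxj1 had 8.04 and 7.66 TPM, while Rsph1 had 1.00 and 0.78 and Dnah5 0.32 and 0.27.

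Of the remaining genes, Kif2a, a depolymerase that prunes axon branches and also acts at spindle poles, was highest at 20.9 and 21.7 TPM. Kif26a and Kif26b, kinesins known for roles in signalling and organ development, had 7.75 and 7.86 TPM (Kif26a) and 5.76 and 6.87 TPM (Kif26b). Kif28 had no counts. Kifc5b, which is close in sequence to Kifc1, had 4.79 and 7.13 TPM. Of this, 65.8% and 64.8% lay in a retained intron transcript, and the coding transcript Kifc5b-201 had 0.54 and 0.91 TPM, under 1 TPM. Over the 2631 bases of Kifc5b-201, 2375 aligned bases were 95.9% identical to the Kifc1 transcript of 674 residues, so that the reads of these 2 genes are divided by a model and their separate levels are uncertain.

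Taken as groups, the mitotic members summed to 531 TPM in replicate 1 and 558 TPM in replicate 2, against 746 and 716 TPM for the axonal members. That is 38.7% and 40.7% of all kinesin TPM for mitotic genes and 54.4% and 52.2% for axonal genes, a mitotic-to-axonal ratio of 0.746 ± 0.049 (SD, n = 2). The medians gave no stable order. The mitotic median was 39.6 TPM and the axonal median 50.1 TPM in replicate 1, whereas the mitotic median was 53.5 TPM and the axonal median 46.4 TPM in replicate 2. On the log2(TPM + 0.1) scale, the replicate 1 difference, mitotic minus axonal, was -0.34 and the replicate 2 difference 0.20; the average, -0.07 ± 0.38 (SD, n = 2), lies within the spread of the libraries. The middle member of the mitotic group was Kif20b in replicate 1 and Kif15 in replicate 2, and both of these levels depended on the annotation, as described next. The direction of the median also turned, to 0.09, when only detected members were kept and, to 0.48, when 4 vesicle motors (Kif1c, Kif13a, Kif16b and Kif17) were counted as axonal.

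The same reads were also quantified against the older M4 annotation, and 36 kinesins could be compared. Of these, 6 were at least 1.5-fold higher under M21 in both libraries (background 4.36%) and 0 at least 1.5-fold lower (background 0.899%). The background was the 12898 protein-coding genes at 1 TPM or more in both libraries under both annotations. The 6 included 3 mitotic motors. Kif20b had 39.6 and 57.6 TPM under M21, against 16.4 and 19.7 TPM under M4. Kif23 had 67.0 and 70.8 TPM under M21, against 39.5 and 39.1 TPM under M4, and Kif15 had 56.4 and 53.5 TPM under M21, against 32.0 and 30.6 TPM under M4. Their read counts differed less: Kif23 had 2510 and 3189 expected counts under M21 and 2326 and 2914 under M4, while its effective length was 2007 and 1912 bases under M21 and 3324 under M4. Each of the 6 genes had 1 M4 transcript that is also in M21, and it held 100% of the gene's M4 TPM in both libraries. Under M21 Kif15 had 17 transcripts, Kif23 12, Kif20b 10, Kif13a 9, Kif13b 6 and Kifc5b 4. Reads assigned to a short transcript count for more TPM.

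The other 3 were Kif13a (1.75-fold and 1.57-fold), Kifc5b (3.01-fold and 2.91-fold) and Kif13b (2.13-fold and 2.18-fold). For 2 of them the counts moved as well. Kif13b had 563 and 612 counts under M21, against 272 and 334 under M4, and Kifc5b had 108 and 207 under M21, against 71.4 and 139 under M4. With M4 levels, mitotic minus axonal came to -0.61 ± 0.08 on the log2 scale and the mitotic-to-axonal ratio of sums to 0.629 ± 0.025 (SD, n = 2 each).

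**Figure D2:**
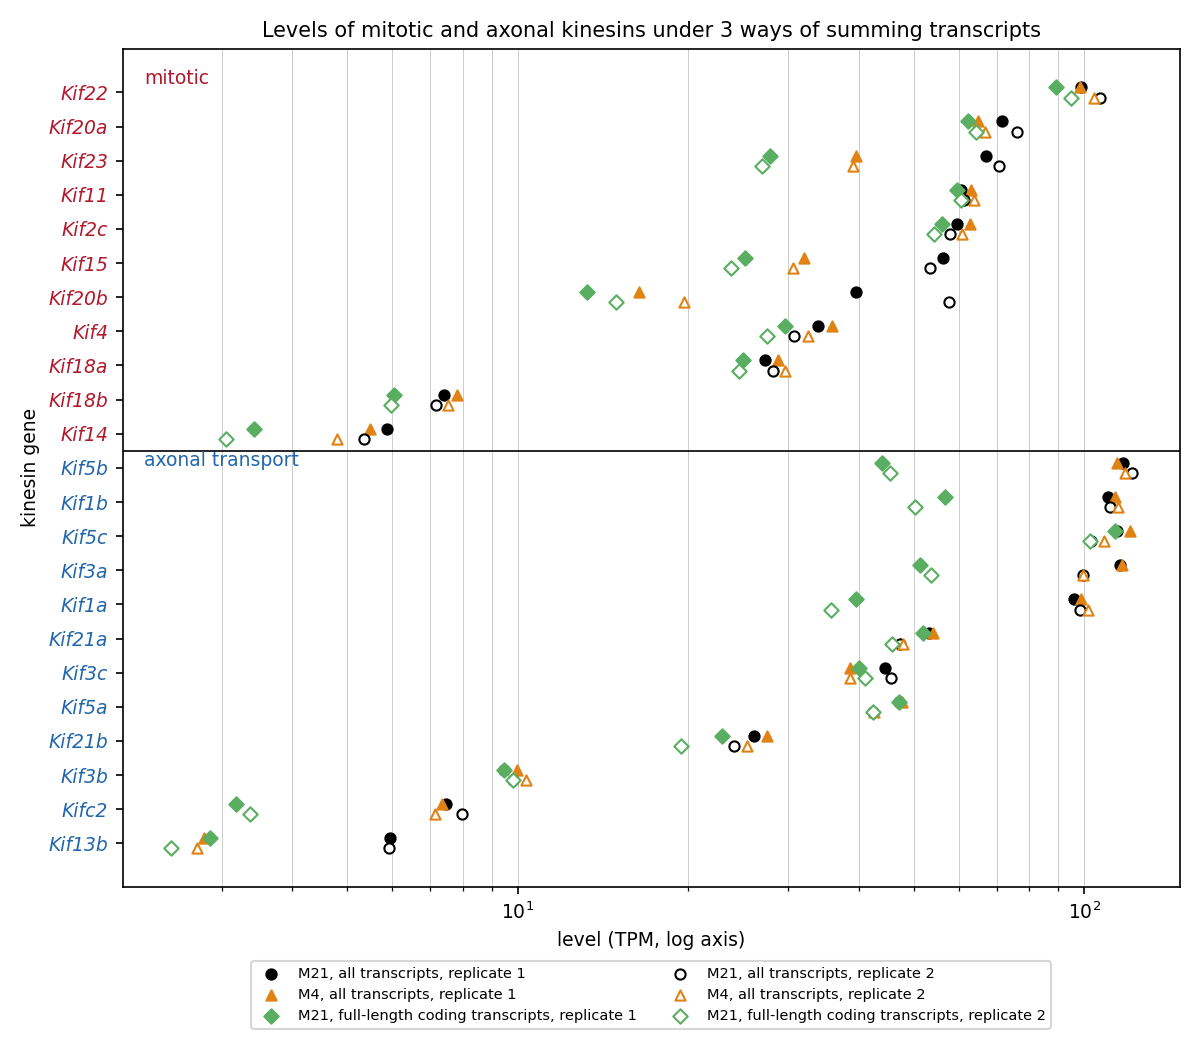
Level in TPM (log axis) of each mitotic (upper block) and axonal (lower block) kinesin at a mean of 5 TPM or more; black circles are M21 with all transcripts, orange triangles M4 and green diamonds M21 transcripts that code for at least 80% of the gene's longest protein, filled for replicate 1 and open for replicate 2. M21 circles lie right of the M4 triangles for Kif23, Kif15, Kif20b and Kif13b, and the green diamonds lie far left for Kif5b, Kif1b, Kif3a and Kif1a, whose M21 and M4 levels are close.

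The transcript tables show where these levels sit. Among the 32 kinesins at a mean of 5 TPM or more, the leading transcript was the same in both libraries for 30; the exceptions were Kifc2 and Kif16b. It was under 1000 bases long in 4 (Kif20b, Kif3a, Kif1a and Kifc5b), and in 4 (Kif20b, Kif5b, Kif3a and Kif1a) it led by TPM but not by reads.

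Kif1a showed this most. Kif1a-206, an annotated transcript of 528 bases coding for 109 residues, held 37.6% and 40.8% of its TPM but 4.95% and 6.05% of its reads. Kif1a-204, of 8206 bases and 1697 residues, held 27.9% and 23.7% of its TPM and 69.3% and 66.3% of its reads. Kif20b-202, of 740 bases, likewise held 40.8% and 40.5% of the gene's TPM with 11.95% and 14.37% of its reads. For both genes TPM and reads therefore name different leading transcripts.

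Kif1b makes a long and a short motor that share the motor domain and differ in the cargo-binding tail. The long form Kif1b-203 (1816 residues) had 56.9 and 50.3 TPM, and the short form Kif1b-201 (1150 residues), known for mitochondrial cargo, 22.9 and 24.1 TPM. A retained intron fragment of 587 bases, Kif1b-205, was given 23.4 and 26.8 TPM from 1.51% and 1.85% of the reads.

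For kinesin-1, Kif5c and Kif5a were almost all full-length: Kif5c-201 held 99.5% and 99.4% of Kif5c TPM and Kif5a-201 91.9% and 91.1% of Kif5a TPM. Kif5b was divided between Kif5b-202, an annotated form of 619 residues with 47.4% and 47.3% of its TPM, and Kif5b-201, of 963 residues with 37.6% and 37.5%. By reads Kif5b-201 led, with 69.0% in each library. Counting full-length transcripts alone, Kif5c held 55.5% and 53.8% of kinesin-1, Kif5a 23.0% and 22.3%, and Kif5b 21.5% and 23.9%.

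For Kif3a the leading transcript by TPM was Kif3a-206, annotated as a target of nonsense-mediated decay, with 39.5% and 30.2% of TPM. The forms Kif3a-201 (698 residues) and Kif3a-208 (694 residues) traded places between the libraries: Kif3a-201 had 20.8 TPM in replicate 1 and 4.77 in replicate 2, and Kif3a-208 0 TPM in replicate 1 and 20.7 in replicate 2. A model divides reads between such overlapping transcripts, and these values are not read as a difference between pools. With full-length transcripts only, Kif3a had 51.3 and 53.6 TPM and the sum of Kif3b and Kif3c 49.5 and 50.9 TPM, a ratio of 1.04 and 1.05. This comparison was made after the values had been seen.

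Transcript shares of the other genes followed different patterns. Kif21a was shared between Kif21a-205 (40.9% and 47.8% of TPM) and Kif21a-204 (38.97% and 33.04%), of 1573 and 1567 residues, and Kif21b-201 held 87.8% and 80.3% of Kif21b. Kif2a-201 held 57.2% and 58.7% of Kif2a. Kif16b was led by Kif16b-201 in replicate 1 (43.1%, against 28.5% in replicate 2) and by Kif16b-205 in replicate 2 (59.0%, against 37.8% in replicate 1). Kifc2 was led by a retained intron transcript of 3193 bases in replicate 1. In replicate 2 it was led by a coding transcript of 3218 bases and 792 residues. Below 5 TPM, Kif1c, Kif17 and Kif19a also had different leading transcripts in the 2 libraries.

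Full-length was taken, after the data had been seen, as a transcript coding for at least 80% of the gene's longest protein. Such transcripts held a median of 87.4% and 84.4% of a mitotic gene's TPM and 69.8% and 67.1% of an axonal gene's TPM, in replicates 1 and 2. By reads the medians were 93.0% and 93.2% for mitotic genes and 92.3% and 86.8% for axonal genes. With these transcripts alone, mitotic minus axonal was -0.74 in replicate 1 and -0.76 in replicate 2 on the log2 scale (mean -0.75 ± 0.02, SD, n = 2), and the ratio of sums was 0.861 ± 0.046. The rule leaves out the short form of Kif1b, which is a known protein.

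**Figure D3:**
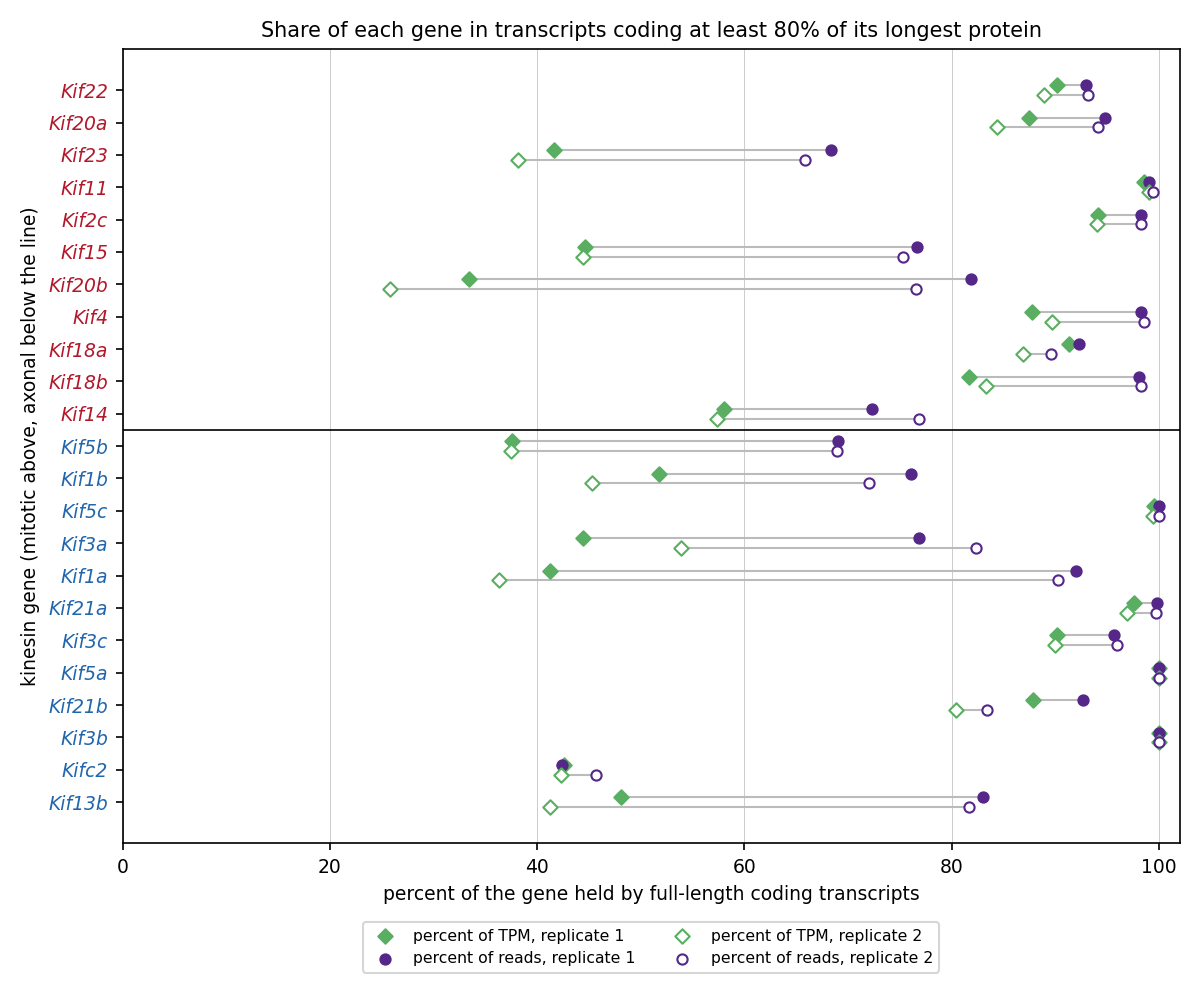
Percent of each gene's TPM (green diamonds) and of its reads (purple circles) held by full-length coding transcripts, for mitotic genes above the line and axonal genes below it, at a mean of 5 TPM or more; filled markers are replicate 1 and open markers replicate 2. The gap between the 2 markers is widest for Kif1a and Kif20b and nearly 0 for Kif5c, Kif5a and Kif3b.

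Between the pools, read counts were compared as log2 ratios, replicate 1 over replicate 2, for the 39 kinesins with at least 10 counts in a library, with intervals that cover counting error only. None differed 2-fold with an interval excluding equality (background 4.23% of 19885 genes). Smaller differences were frequent at this depth. The interval lay above equality, that is higher in replicate 1, for 15 kinesins (38.5%, background 15.5%) and below it for 4 (10.3%, background 16.7%), and it included equality for 20. The background takes in all genes from 10 counts up and was not matched for read count, on which the width of an interval depends.

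The axonal group held 8 of these 15. Kif21a had 5840 counts in replicate 1 and 6515 in replicate 2, a log2 ratio of 0.21 (95% interval 0.15 to 0.26) after scaling for depth. Kif5a had a ratio of 0.19 (0.13 to 0.24), Kif5c 0.18 (0.15 to 0.21), Kif1a 0.16 (0.11 to 0.21) and Kif1b 0.13 (0.09 to 0.16). The TPM of Kif1a (95.8 in replicate 1 and 98.4 in replicate 2) and of Kif1b (110 and 111) ran the other way, so for these 2 genes the direction depends on the unit. Kif21b, Kif3a and Kif13b were also higher in replicate 1, at 0.12, 0.11 and 0.24, though Kif13b was at 0.07 with an interval including equality under M4. The 4 others, Kif5b, Kif3c, Kif3b and Kifc2, had ratios between -0.03 and 0.04 with intervals that included equality, so none of the 12 was higher in replicate 2. The axonal median was 0.12.

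The mitotic group was more divided. Kif14 (0.27), Kif4 (0.14), Kif15 (0.08, interval 0.01 to 0.16) and Kif2c (0.07, interval 0.0004 to 0.14) were higher in replicate 1, the last 2 narrowly. Kif20b (-0.24, interval -0.33 to -0.15) was higher in replicate 2. The intervals of the other 7, which include Kif22, Kif20a, Kif23 and Kif11, included equality, and the mitotic median was 0.01. The median over all genes was -0.01. Neuron markers had a median of 0.11 (4 of 5 higher in replicate 1) and cycling markers 0.01 (1 of 4 higher in replicate 1), and mesenchyme markers -0.47. Progenitor markers were split around a median of -0.01. Sox2 (0.29) and Nes (0.12) were higher in replicate 1, Hes5 (-0.14) and Pax3 (-0.21) in replicate 2, and the interval of Vim included equality. The part of cell composition in these ratios was not tested.

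In the other groups Kifc3 (0.31), Kif24 (0.18, interval 0.01 to 0.34) and Kif6 (0.52, interval 0.04 to 1.00) were higher in replicate 1 by counts. The TPM of Kif24 (9.08 and 9.90) ran the other way, as for Kif1a and Kif1b. Kif26b (-0.19), Kifc5b (-0.58, interval -0.92 to -0.23) and Kif17 (-0.72, interval -1.47 to -0.01) were higher in replicate 2. Kif17 rested on 25 and 53 counts and Kif6 on 79 and 71. All of these ratios are relative to the bulk of genes. Scaling to the ERCC spike-ins moved the median over all genes to -0.28, and with it every kinesin. The ratio of 12 called members changed sign, and for Kif24 and Kif13b among them the interval then included equality. Relative to the median over all genes the axonal and mitotic values kept the same distance.

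**Figure D4:**
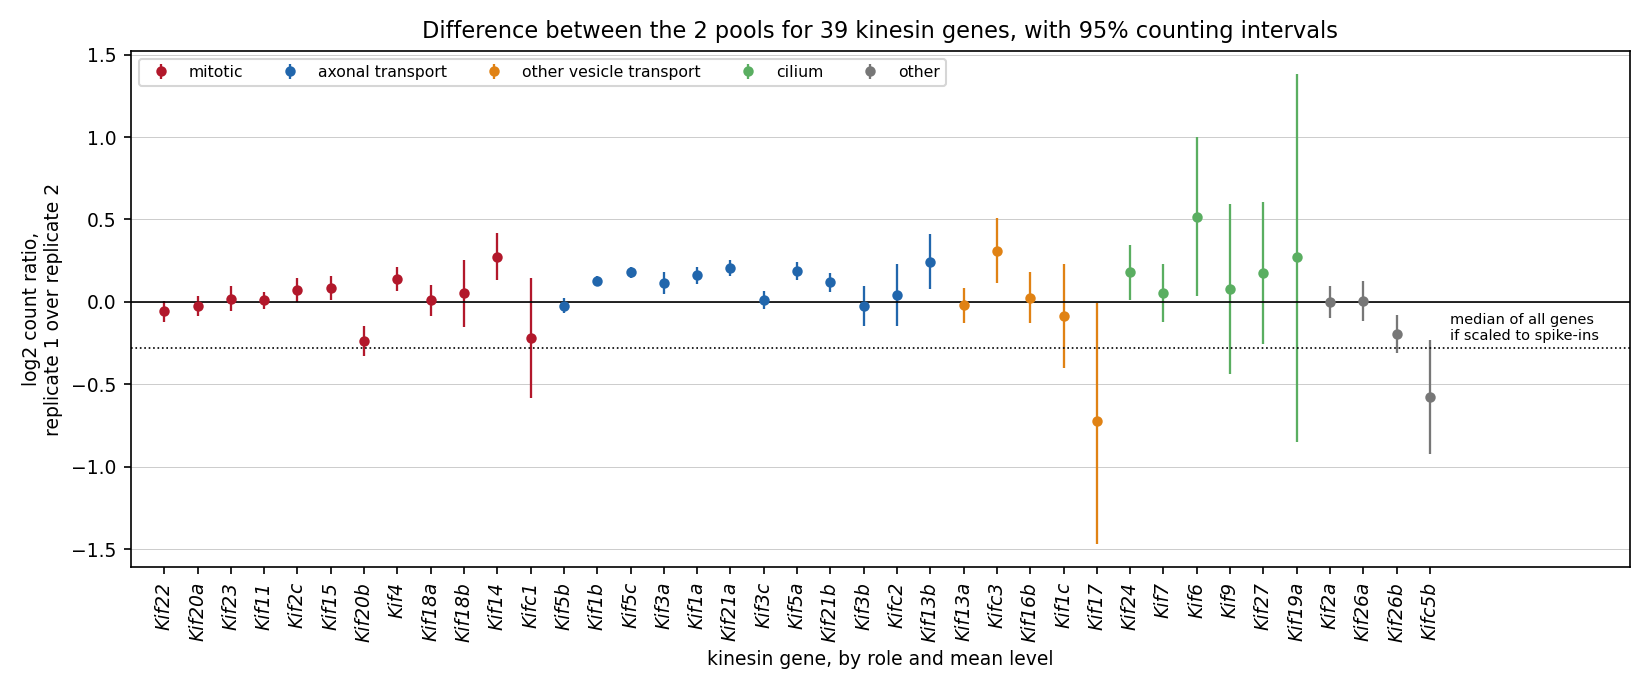
Log2 ratio of read counts, replicate 1 over replicate 2, for 39 kinesin genes by role with 95% counting intervals; the solid line is equality under TMM scaling and the dotted line the median of all genes under spike-in scaling (-0.28). Axonal genes lie between -0.03 and 0.24, with 10 above the solid line and 2, Kif5b and Kif3b, slightly below it. Mitotic genes lie on both sides of it, between -0.24 and 0.27.

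Partners of the motors were read from 3 lists. Of 15 light chains, accessory subunits and adaptors of transport kinesins, 14 were detected, with a median of 45.9 and 46.8 TPM. Klc1, a kinesin-1 light chain, was highest at 307 and 299 TPM, and Klc3 was lowest at 0.86 and 2.10 TPM. Kifap3, the third subunit of the Kif3 motor, had 45.9 and 46.8 TPM. By counts, 6 genes of this list were higher in replicate 1 (background 15.5%) and 1, Klc3, higher in replicate 2 (log2 ratio -0.99, background 16.7%).

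All 10 mitotic partners were detected, with a median of 101 and 108 TPM. Birc5, a subunit of the passenger complex that Kif20a carries, was highest at 174 and 186 TPM, and Cenpe, the kinetochore kinesin outside the symbol rule, lowest at 27.0 and 26.5 TPM. Racgap1, the partner of Kif23 in centralspindlin, had 170 and 174 TPM. Here 2 genes were higher in replicate 1 (background 15.5%) and 4 in replicate 2 (background 16.7%). All 10 genes of cytoplasmic dynein and dynactin, the opposing minus-end transport machinery, were detected as well, with a median of 99.1 and 104 TPM, from Dync1i1 at 2.63 and 2.26 TPM to Dctn2 at 187 and 196 TPM; 1 was higher in replicate 1 and 3 in replicate 2, against the same backgrounds. By counts, no gene of the 3 lists differed 2-fold with an interval excluding equality, although the TPM of Klc3 differed by more than that.

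Genes of the G2 and M phases are known to carry a cell cycle homology region (CHR) near the start site, most often TTTGAA, frequently with a CCAAT box, bound by NF-Y, just upstream. RefSeq promoter windows (GRCm38.p6, 250 bases before to 50 after the start) were matched by symbol for 33 of the 42 kinesins, among them 12 mitotic and 7 axonal genes; Kif20a, Kif5a, Kif5b, Kif13b, Kif21b, Kifc2, Kifc3, Kif19a and Kif28 had none in the table used. Both strands were searched for each string, and a match is a description of letters, not a binding site. TTTGAA was found in 10 of 12 mitotic windows, all but Kif18a and Kif2b, and in 1 of 7 axonal genes (Kif1a, in 1 of its windows). The background was 17.9% of all 32851 promoter windows, or 20.2% of 27025 genes when any window of a gene counts. Among the rest it was present in Kif27, Kif26b and Kifc5b. In 8 of the mitotic genes a match lay within 100 bases before the start or after it (8.01% of all windows). CCAAT was found in 8 of 12 mitotic and 3 of 7 axonal genes (Kif1b, Kif3a and Kif3b), in 3 of 5 cilium genes (Kif6, Kif24 and Kif27) and in 2 of the 4 remaining genes (Kif26b and Kifc5b). The background was 37.4% of windows, or 41.1% of genes. A CCAAT less than 50 bases before a TTTGAA, on either strand, was present in Kif23, Kif22, Kif4, Kif11, Kif18b and Kifc1, in none of the 7 axonal genes, in Kif27 of the cilium group and Kifc5b of the rest, and in 1.68% of all windows. The windows below show the match nearest to the start for the 8 mitotic genes, for Kif1a as the axonal exception and for Kifc5b beside its relative Kifc1; each runs in the gene's direction, and capitals mark TTTGAA or its reverse complement TTCAAA.
Kif22 (chr7:127042420-127042449, minus strand): gggccccggtaaTTCAAAagagagaagcgg
Kif15 (chr9:122951050-122951079, plus strand): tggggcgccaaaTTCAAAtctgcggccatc
Kif11 (chr19:37376351-37376380, plus strand): tcgtctccatttTTCAAAattgaggcgcgg
Kifc1 (chr17:33890615-33890644, minus strand): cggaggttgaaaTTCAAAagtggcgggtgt
Kif23 (chr9:61946780-61946809, minus strand): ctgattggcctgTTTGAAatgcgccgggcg
Kif18b (chr11:102925104-102925133, minus strand): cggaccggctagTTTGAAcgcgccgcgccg
Kif20b (chr19:34922353-34922382, plus strand): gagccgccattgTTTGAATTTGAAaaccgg
Kif4 (chrX:100626072-100626101, plus strand): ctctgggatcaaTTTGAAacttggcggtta
Kif1a (chr1:93082507-93082536, minus strand): tttgacagcctcTTTGAAcattgctcctaa
Kifc5b (chr17:26917108-26917137, plus strand): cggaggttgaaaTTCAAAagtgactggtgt
In these windows the match began 17 bases before the RefSeq start in Kif22 and 19 before it in Kif15 and Kif11, and after the start, at bases 2 to 20, in Kifc1, Kif23, Kif18b, Kif20b and Kif4. Kif20b held 2 matches in a row. The Kif14 and Kif2c matches lay farther out, 228 and 103 bases before the start, and both of these genes also held the CHR variant TTTAAA (13.2% of all windows), as did no other kinesin with a window. Kif18a, which lacked TTTGAA, held TTTGGCGC, a string known from E2F sites, as did Kif15 (0.514% of all windows); GGCGGGAA, another E2F string, was found in Kif6 alone (2.19%). The 2 mitotic genes without TTTGAA differed widely in level, Kif18a at 27.4 and 28.3 TPM and Kif2b at 0. Kifc1, which held TTTGAA and CCAAT, was low at 2.91 and 3.45 TPM. A relation between string and level was not tested, and 2 genes without TTTGAA are too few to show one.

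**Figure D5:**
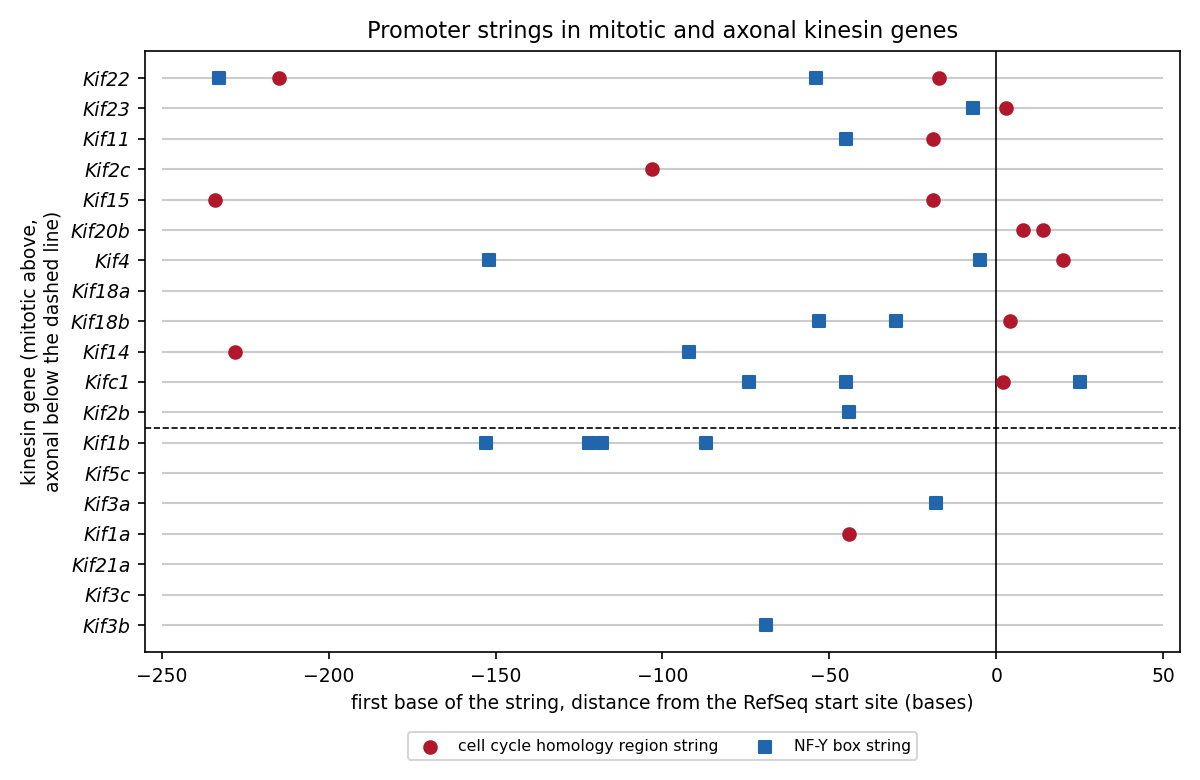
Position of the CHR string (red circles) and of the CCAAT-box string bound by NF-Y (blue squares) relative to the RefSeq start site, in bases, for 12 mitotic genes (above the dashed line) and 7 axonal genes (below it); the windows of a gene with several are drawn on 1 row. In 8 of the 12 mitotic genes a red circle lies between 19 bases before and 20 bases after the start, and 1 red circle is seen among axonal genes, in Kif1a.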

How the data were processed

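Polyadenylated RNA was measured in 2 libraries of 1 group, so nothing was tested across pools, and it is not stated whether the pools came from separate litters or days. Per the labels' protocols, libraries were primed with oligo-dT and amplified from low input, fragmented by tagmentation and spiked with ERCC RNAs; oligo-dT priming and amplification can weight reads along long transcripts. The authors deposited gene and transcript tables against the GENCODE M21 and M4 annotations of mm10, per the manifests beside the tables. The deposited columns are, per the file headers, an expected count (reads divided among transcripts by a model, not scaled), TPM, FPKM and, for transcripts, the percent of the gene's TPM. Aligner, quantification tool and strand setting: not given in the sources used here.

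M21 was used unless stated, with symbols, gene types, positions and protein lengths from that GENCODE release. Rows that name no gene (4.02% of counts in replicate 1 and 3.38% in replicate 2) were kept out of library sizes. Levels are deposited TPM; medians were compared on log2(TPM + 0.1). For ratios between libraries, expected counts were rounded and scaled by TMM factors (edgeR 4.0.16, R 4.3.3), and exact conditional binomial (Clopper-Pearson) 95% intervals were computed (scipy 1.17.1, Python 3.11.15) where 1 library or both reached 10 counts; they cover counting error only, since reads without molecular identifiers are not independent molecules. The procedure was run on simulated counts that held only the counting error the intervals assume. That run therefore cannot show how the intervals cover variation between pools or from dividing reads among transcripts. Promoter windows came from RefSeq (GRCm38.p6), and near-identical transcripts were aligned with blastn 2.17.0.

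All members are named; values are given for every member at 1 TPM or more in either library, and of the partner lists for the highest, the lowest and those under the limit, with Kifap3 and Racgap1 added after their values were seen. Members, roles and lists were chosen with earlier results of these data known. Alternatives covered annotation, scaling, unit, pseudocount, count minimum, detection limit, group membership, each replicate left out and full-length transcripts.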

Additional observations from a re-analysis of the deposited data

How the results depend on the processing

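The count of detected kinesins (31 to 37 over its alternatives, 34 with full-length transcripts) and the count of 2-fold differences (0 in each) did not move by more than 1.5 times under the alternatives run. The median gap between mitotic and axonal kinesins was not stable: against -0.07, it was -0.61 under M4, -0.92 with narrow groups (mitotic without Kif2b; axonal without Kif3a, Kif3b, Kif13b, Kif21a and Kifc2), -0.75 with full-length transcripts, 0.48 with vesicle motors added to the axonal group and 0.0874 with detected members only, and it ran from -0.34 to 0.20 when either replicate was left out. The full-length setting counts fewer transcripts of a gene. The narrow, widened and detected-only settings change by construction which genes enter a median, and the detected-only setting dropped Kif2b alone from these groups. For M4 levels the cause was not tested. The mitotic-to-axonal ratio of sums, 0.746, was 0.629 under M4, 0.991 with narrow groups and 0.861 with full-length transcripts, and 0.711 to 0.780 with either replicate left out. Scaling to spike-ins, which moves the median of all genes to -0.28, turned the median ratio of mitotic genes to -0.26 and of axonal genes to -0.15, and 31 rather than 19 kinesins then had an interval excluding equality. Under it the ratio of 12 called members changed sign: Kif1a (-0.11), Kif3a (-0.16), Kif21a (-0.0640), Kif5c (-0.0905), Kif24 (-0.0906), Kif2c (-0.20), Kif4 (-0.13), Kif15 (-0.19), Kif21b (-0.15), Kif13b (-0.0266), Kif1b (-0.14) and Kif5a (-0.0842). The intervals of Kif24 and Kif13b then included equality. The median share of the leading transcript was 57.6% under M21 and 91.7% under M4, where only M4 transcripts that are also in M21 were considered. The deposited tables also give an interval for each TPM, whose level is not stated there; the TPM of 7 members in replicate 1 and 5 in replicate 2 lies outside it. No paired analysis was possible because there is only 1 group. At these depths, Kif6, Kif9, Kif17, Kif19a and Kif27, with 15 to 98.8 counts, have wide intervals.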

Other observations

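Grouped by numbered family rather than by role, kinesin-6, the cytokinesis family of Kif20a, Kif20b and Kif23, held 12.99% of kinesin TPM in replicate 1 and 14.92% in replicate 2, and kinesin-2 12.4% and 11.4%. Kinesin-4, which joins the mitotic Kif4 with the neuronal Kif21a and Kif21b and the hedgehog motor Kif7, held 8.75% and 7.93%. Kinesin-10, made of Kif22 alone, held 7.21% and 7.76%, and kinesin-13, the depolymerase family, 6.54% and 6.52%. The minus-end kinesin-14 motors held 1.69% and 1.93%. Of the 36 detected kinesins, 25 had TPM values whose range over the 2 libraries was under 10% of their mean, and the widest range was 39.3% of the mean.

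Kif20b differed more by TPM than by reads between the pools. Its TPM was 39.6 in replicate 1 and 57.6 in replicate 2, its counts gave a log2 ratio of -0.24, and its full-length transcripts had 13.2 and 14.9 TPM; its effective length was 2190 bases in replicate 1 and 1807 in replicate 2. The order of the pools for Kif3a depended on which transcripts were summed: it had 116 and 99.4 TPM with all transcripts and 51.3 and 53.6 TPM with full-length transcripts. Sequence names that start with Kif but fall outside the symbol rule numbered 6, among them the pseudogenes Kif4-ps, Kif22-ps and Kifc5c-ps, whose longest transcripts were 79.5%, 87.8% and 92.7% identical to transcripts of Kif4, Kif22 and Kifc1, in that order, over the aligned bases.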
